A study of Arabidopsis thaliana with 18 samples.

Results

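The 10 genes described here encode enzymes that make raffinose sugars and that make or break down proline in Arabidopsis thaliana. They were taken by locus identifier from 32399 counted loci, by a rule that uses no measured value. The genes were nonetheless listed with earlier results of these data known. They are the galactinol synthase genes GOLS1 (AT2G47180), GOLS2 (AT1G56600), GOLS3 (AT1G09350) and GOLS4 (AT1G60470), the raffinose synthase genes RS5 (AT5G40390) and RS4 (AT4G01970), and 4 genes of proline metabolism. These 4 are P5CS2 (AT3G55610) and P5CR (AT5G14800) for synthesis and ProDH1 (AT3G30775) and ProDH2 (AT5G38710) for breakdown. Of the 10, 7 passed the filter on low counts and could be tested, among 15853 loci tested in all. GOLS3, RS4 and P5CR did not pass and are given as counts.

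Messenger RNA was sequenced from whole seedlings aged 12 d of ros1-3, ros1-4 and wild type (WT). The mutants carry different alleles of ROS1, which encodes a DNA glycosylase that removes methylated cytosine. Before harvest, seedlings of each genotype lay for 6 h in water that held either 50 µM abscisic acid (ABA), a stress hormone, or only its solvent (mock). The 6 groups are therefore ros1-3 ABA, ros1-3 mock, ros1-4 ABA, ros1-4 mock, WT ABA and WT mock, with 3 libraries each and 5 plants pooled per library. Seedlings of all 6 groups, the mock groups included, were submerged, and each mutant is represented by 1 line. No batch is named, and separate growth or treatment of the pools is not stated, so p-values measure the spread between these pools.

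Galactinol synthase joins UDP-galactose to myo-inositol, and raffinose synthase moves the galactose of galactinol onto sucrose. Proline is made from glutamate by P5CS, the rate-limiting step, followed by P5CR. It is broken down in mitochondria by proline dehydrogenase, ProDH, and then by P5CDH. Raffinose sugars and proline accumulate in plants under drought, cold and salt, and are known as compatible solutes that protect proteins and membranes.

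Promoter windows of 5 genes are shown first, since the results below turn on the galactinol synthases that rose with ABA and on a pair of proline dehydrogenases that moved in opposite directions. Each window holds the 300 bases before the annotated gene start, read 5′ to 3′ along the gene from the TAIR10.1 RefSeq genome by locus identifier. Capitals mark matches, on either strand, to 4 short motifs: ACGTG, the core of the ABA-responsive element; CCGAC, the core of the dehydration-responsive element; ACTCAT, the proline-responsive element; and GAANNTTC, a heat shock element core. The windows are chr2:19370479-19370778 (minus strand) for GOLS1, chr1:21207237-21207536 (plus strand) for GOLS2 and chr1:22280594-22280893 (minus strand) for GOLS4. Those of the proline dehydrogenase genes are chr3:12451557-12451856 (minus strand) for ProDH1 and chr5:15500826-15501125 (plus strand) for ProDH2.
GOLS1: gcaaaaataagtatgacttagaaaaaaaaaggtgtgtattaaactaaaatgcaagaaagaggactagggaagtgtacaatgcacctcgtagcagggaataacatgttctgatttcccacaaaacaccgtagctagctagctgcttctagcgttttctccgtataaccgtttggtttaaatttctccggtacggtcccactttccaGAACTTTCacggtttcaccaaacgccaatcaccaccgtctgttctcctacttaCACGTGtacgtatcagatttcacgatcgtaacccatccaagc
GOLS2: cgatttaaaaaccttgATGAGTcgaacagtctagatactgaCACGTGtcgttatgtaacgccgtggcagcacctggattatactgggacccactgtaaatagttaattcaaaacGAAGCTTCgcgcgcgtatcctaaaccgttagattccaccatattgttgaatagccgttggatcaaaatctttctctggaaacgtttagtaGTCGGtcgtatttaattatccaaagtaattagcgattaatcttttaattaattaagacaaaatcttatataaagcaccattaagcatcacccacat
GOLS4: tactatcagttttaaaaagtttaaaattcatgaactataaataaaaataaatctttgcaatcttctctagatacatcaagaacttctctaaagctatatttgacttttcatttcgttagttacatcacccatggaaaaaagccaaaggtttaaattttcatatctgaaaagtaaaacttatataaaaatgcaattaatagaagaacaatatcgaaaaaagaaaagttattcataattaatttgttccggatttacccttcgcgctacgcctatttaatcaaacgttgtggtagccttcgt
ProDH1: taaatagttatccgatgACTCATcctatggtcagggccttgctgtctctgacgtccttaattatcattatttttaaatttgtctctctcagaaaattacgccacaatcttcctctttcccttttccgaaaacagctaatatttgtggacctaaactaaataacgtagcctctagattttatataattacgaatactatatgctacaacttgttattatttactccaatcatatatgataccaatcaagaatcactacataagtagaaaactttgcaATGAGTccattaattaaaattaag
ProDH2: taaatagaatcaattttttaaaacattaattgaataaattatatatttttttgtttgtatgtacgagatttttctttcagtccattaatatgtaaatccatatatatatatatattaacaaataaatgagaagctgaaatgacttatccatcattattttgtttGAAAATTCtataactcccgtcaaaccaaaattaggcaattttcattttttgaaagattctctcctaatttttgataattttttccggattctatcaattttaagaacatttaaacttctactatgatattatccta

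GOLS1 held 1 ABRE core, as the palindrome CACGTG that matches on both strands, 42 to 37 bases before the gene start, and 1 heat shock core. GOLS2 held 1 match to each of the 4 motifs, with its CACGTG 259 to 254 bases before the start. GOLS4 held none of the 4. ProDH1 held 2 proline-responsive elements, at 283 to 278 and 24 to 19 bases before the start, and ProDH2 held 1 heat shock core. Among the members not printed, the ABRE core occurred at 1 place in GOLS3 and P5CR and at 2 in RS4. The DRE core occurred at 1 place in RS5, P5CS2 and P5CR and at 2 in GOLS3, and P5CS2 also held 1 proline-responsive element. Of 27438 gene windows of the same length, 25.6% held the ABRE core, 13.9% the DRE core, 14.8% the proline-responsive element and 11.5% the heat shock core. At least 2 proline-responsive elements, overlapping matches counted as 1, stood in 1.39% of windows. This element was listed as that of ProDH, so its presence in ProDH1 is no independent finding. A match is a sequence description, and no binding was measured here.

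Counted reads per library ranged from 3304038 to 10275773. No pair of libraries of a group agreed within counting noise: the lowest mean chi-square per locus was 2.02, where about 1 is sampling noise alone, so each library counts once. As a check of the labels, ROS1 (AT2G36490) averaged 53.9 ± 5.82 CPM in ros1-3, 40.7 ± 6.20 in ros1-4 and 108 ± 11.9 in WT after ABA (SD, n = 3 each), where CPM is counts per 1000000 scaled reads on tested loci. After mock it averaged 54.1 ± 3.29, 34.5 ± 3.57 and 87.8 ± 6.17 CPM in the same order of genotypes. The summed level of 5 seed markers was 0.143 to 2.79 CPM in single libraries, with 2 of the 5 at 0 throughout. The summed level of 5 flower markers was 0.302 to 5.30 CPM in single libraries, with 1 of the 5 at 0 throughout. The seed markers at 0, CRA1 and CRU3, have 3 and 4 transcript models, and the flower marker at 0, SEP3, has 3. Reads shared by several models of a locus are not counted, so these zeros do not show that the genes were silent.

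**Figure D1:**
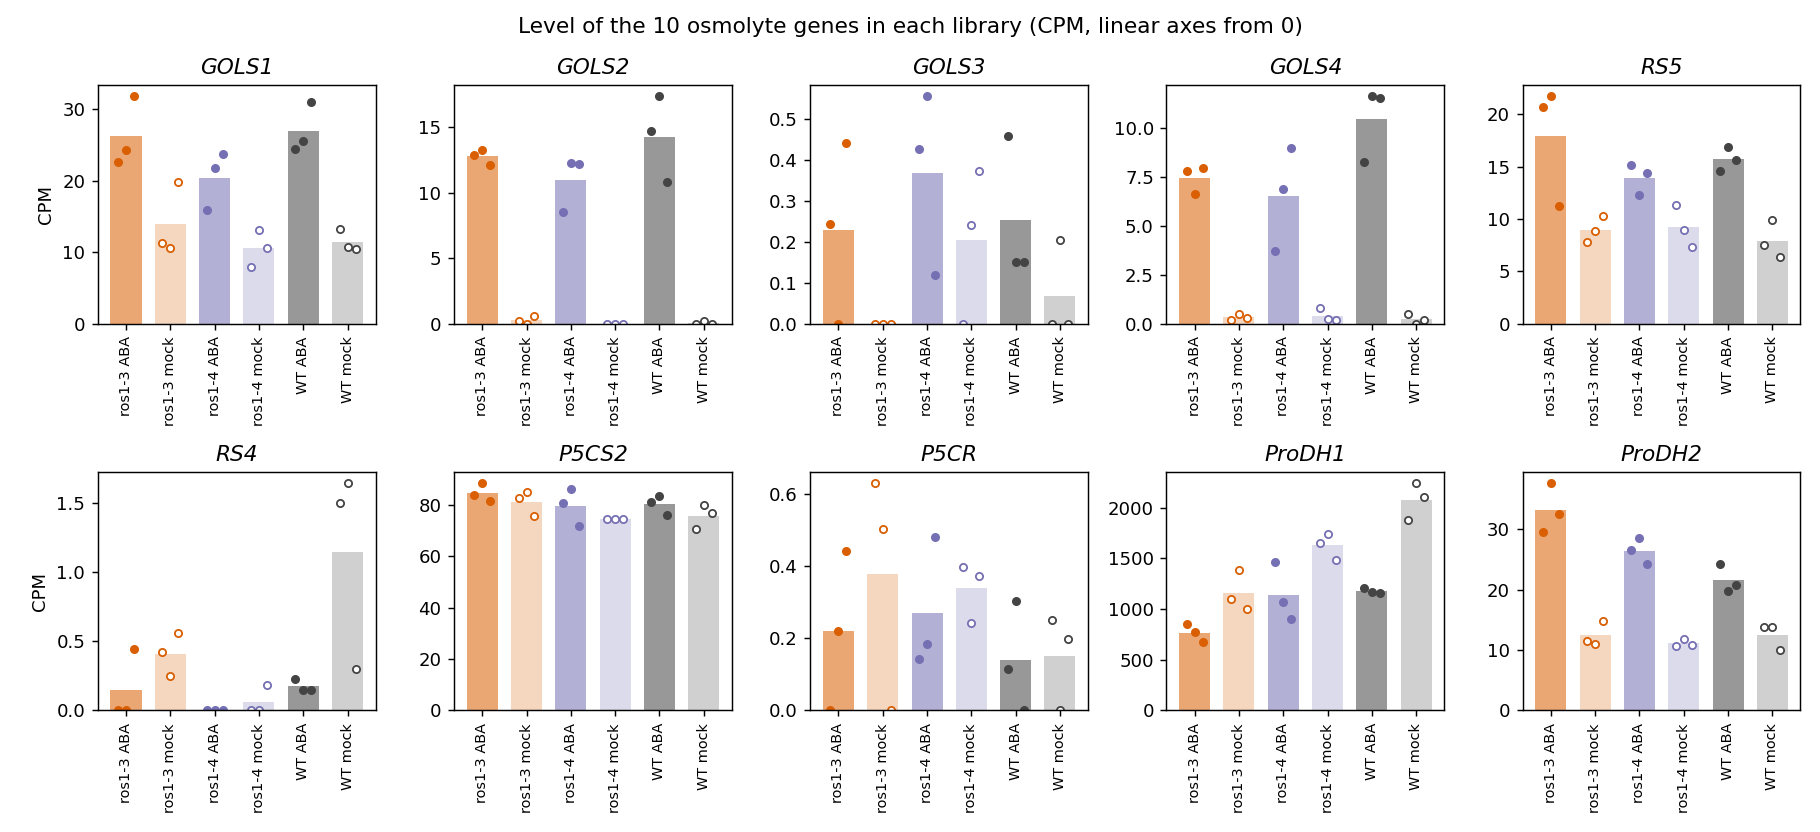
Level of each of the 10 genes in CPM (vertical axes, linear from 0) in the 6 groups; points are libraries, filled for ABA and open for mock, and bars are means of 3. GOLS2 and GOLS4 lie near 0 in each mock group, P5CS2 is level across groups, and ProDH1 and ProDH2 move in opposite directions with ABA.

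ABA was compared with mock in each genotype to see how the hormone changes osmolyte genes. In each of the 3 genotypes GOLS1, GOLS2, GOLS4, RS5 and ProDH2 rose, ProDH1 fell, and P5CS2 did not pass the test. These were 5 higher and 1 lower of the 7 tested members. Over all tested loci edgeR's quasi-likelihood test called 38.2% in ros1-3 (19.7% higher, 18.5% lower), 38.2% in ros1-4 (19.8% higher, 18.4% lower) and 38.5% in WT (20% higher, 18.5% lower), at an adjusted p under 0.05. ABA and mock libraries did not overlap for 6 of the 7 members in each genotype, beside 48.9% of tested loci in ros1-3, 47% in ros1-4 and 49% in WT. The median log2 fold change of the 7 was 1.0 in ros1-3, 0.97 in ros1-4 and 1.02 in WT, beside -0.02, -0.01 and -0.01 over all tested loci. These medians are the same with GOLS2 at the ratio or bound given below. GOLS2 and GOLS4 passed the count filter only through the ABA libraries, so they had to differ. The count of 5, the lack of overlap for 6 of 7 and the medians all include these genes and are descriptions. In these bulk samples, fewer cells of a type and less RNA per cell cannot be told apart. The summed level of 5 root markers was 17.2 to 22.8 CPM in ros1-3 ABA against 51.2 to 86.1 in ros1-3 mock, 17.4 to 18.1 in ros1-4 ABA against 58.2 to 90.6 in ros1-4 mock, and 17.3 to 21.6 in WT ABA against 72.4 to 117 in WT mock. Of these markers 4, 5 and 5 fell in ros1-3, ros1-4 and WT, and their part in the members' changes was not tested. The summed level of 5 leaf markers was 9260 to 10800 CPM in ros1-3 ABA against 8790 to 9690 in ros1-3 mock, 8970 to 11200 in ros1-4 ABA against 8370 to 10600 in ros1-4 mock, and 8870 to 11400 in WT ABA against 8180 to 9940 in WT mock. Of the 4 leaf markers tested, LHCB2.3 rose in each genotype (log2 0.84 in ros1-3, 0.72 in ros1-4 and 1.04 in WT) and CAB3 in WT (0.41). RBCS1A and RCA averaged lower after ABA in each genotype, without passing the test. For RBCS1A the means were 3499 against 3871 CPM in ros1-3, 4336 against 4788 in ros1-4 and 4193 against 4886 in WT. The part of the leaf markers in the members' changes was not tested either.

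The galactinol synthases form the first group. GOLS2 was close to silent after mock and clearly detected after ABA. Its libraries held 12.9, 13.3 and 12.1 CPM in ros1-3 ABA against 0.210, 0 and 0.557 in ros1-3 mock. They held 8.56, 12.2 and 12.2 CPM in ros1-4 ABA against 0 in all 3 libraries of ros1-4 mock. In WT they held 14.7, 17.4 and 10.8 CPM after ABA against 0, 0.205 and 0 after mock. Every ABA library stood above every mock library. The mock groups rest on 3, 0 and 1 reads in ros1-3, ros1-4 and WT. The ratio of scaled counts was 52.5 in ros1-3 (exact 95% counting interval 17.6 to 257) and 271 in WT (48.2 to 10700). In ros1-4 GOLS2 was at least 53.1-fold higher, computed against a floor of 3 counts over the group. These intervals and bounds cover counting error only. The edgeR adjusted p was 1.05e-08 in ros1-3, 2.74e-09 in ros1-4 and 2.02e-10 in WT. GOLS2 lies on chromosome 1, 21207537 to 21209635, on the plus strand (TAIR10.1), and its printed window is the one with all 4 motifs.

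GOLS4, whose promoter window holds none of the motifs, followed the same pattern. Its libraries held 7.79, 6.64 and 7.95 CPM in ros1-3 ABA against 0.210, 0.504 and 0.279 in ros1-3 mock. In ros1-4 they held 3.71, 6.86 and 8.99 CPM after ABA against 0.796, 0.242 and 0.187 after mock, and in WT 8.26, 11.6 and 11.5 after ABA against 0.501, 0 and 0.199 after mock. The groups did not overlap in any genotype, although ros1-4 ABA replicate 1 was the lowest ABA library. The log2 fold change was 4.43 (SE 0.55) in ros1-3, 3.92 (SE 0.49) in ros1-4 and 5.48 (SE 0.47) in WT. The adjusted p by edgeR was 9.89e-07, 1.15e-06 and 4.66e-09 in that order. GOLS4 lies on chromosome 1, 22278975 to 22280593, on the minus strand, and 33 of its 1619 bases overlap AT1G60460 on the other strand, a locus below the count filter.

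Of the 4 galactinol synthases among the members, GOLS1 was the one with more than a few reads per library in mock, and its change was smaller than that of GOLS2 and GOLS4. It had 22.6, 24.4 and 31.8 CPM in ros1-3 ABA libraries against 11.3, 10.6 and 19.8 in ros1-3 mock libraries. It had 15.8, 21.7 and 23.7 CPM in ros1-4 ABA against 7.96, 13.1 and 10.7 in ros1-4 mock, and 24.4, 25.5 and 31.0 CPM in WT ABA against 13.3, 10.7 and 10.4 in WT mock. Within each genotype the treatments did not overlap, with ros1-3 mock replicate 3 the highest of the mock libraries. The log2 fold change was 0.94 (SE 0.22, edgeR adjusted p = 0.00141) in ros1-3. It was 0.97 (SE 0.22, edgeR adjusted p = 0.00115) in ros1-4 and 1.26 (SE 0.20, edgeR adjusted p = 3.05e-05) in WT. GOLS1 lies on chromosome 2, 19368798 to 19370478, on the minus strand, and 43 of its 1681 bases overlap AT2G47170 on the other strand. That neighbour did not pass the test with ABA, at log2 0.06 in ros1-3, 0.08 in ros1-4 and 0.12 in WT. Whether strand was used in counting is stated in none of the sources used.

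GOLS3, known for its response to cold, was barely detected. It gave 1, 0 and 2 reads in ros1-3 ABA, 0 in each ros1-3 mock library, 3, 3 and 1 in ros1-4 ABA and 0, 1 and 2 in ros1-4 mock. In WT it gave 4, 1 and 1 reads after ABA against 0, 1 and 0 after mock. With 20 reads over 18 libraries, a difference between treatments was not detectable at this depth. The 4 coding sequences were 68% to 80.6% identical in pairs, with GOLS2 and GOLS3 the closest, and the longest identical run of any pair was 26 bases.

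The makeup of the transcripts of these 4 galactinol synthase genes differed between treatments. Per length, as CPM per kilobase of spliced transcript, GOLS1 made up 52.1% to 60.9% of the summed level of the 4 genes in ros1-3 ABA libraries, against 95.3% to 96.4% in ros1-3 mock libraries. It made up 52.7% to 55.8% in ros1-4 ABA against 90.7% to 96.5% in ros1-4 mock, and 46.8% to 58.0% in WT ABA against 96.3% to 98.1% in WT mock. The shares of the ABA and mock libraries did not overlap. GOLS8, a listed gene outside the members also known as GATL10, had 1.92 to 3.96 CPM per kb over all libraries. With it in the sum, a choice made after seeing the data, the GOLS1 share was 48.6% to 57.2% in ros1-3 ABA against 69.9% to 85% in ros1-3 mock, 48.3% to 49.0% in ros1-4 ABA against 67.4% to 75.0% in ros1-4 mock, and 44.0% to 52.6% in WT ABA against 69.9% to 76.3% in WT mock, still without overlap. GOLS2 made up 19.6% to 30.9% of the sum across the 9 ABA libraries and GOLS4 13.5% to 22.2%. The summed per-length level was 31.2 to 37.5 CPM per kb in ros1-3 ABA against 7.97 to 14.8 in ros1-3 mock, 20.4 to 32.3 in ros1-4 ABA against 6.31 to 9.75 in ros1-4 mock, and 34.2 to 39.1 in WT ABA against 7.65 to 9.90 in WT mock.

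**Figure D2:**
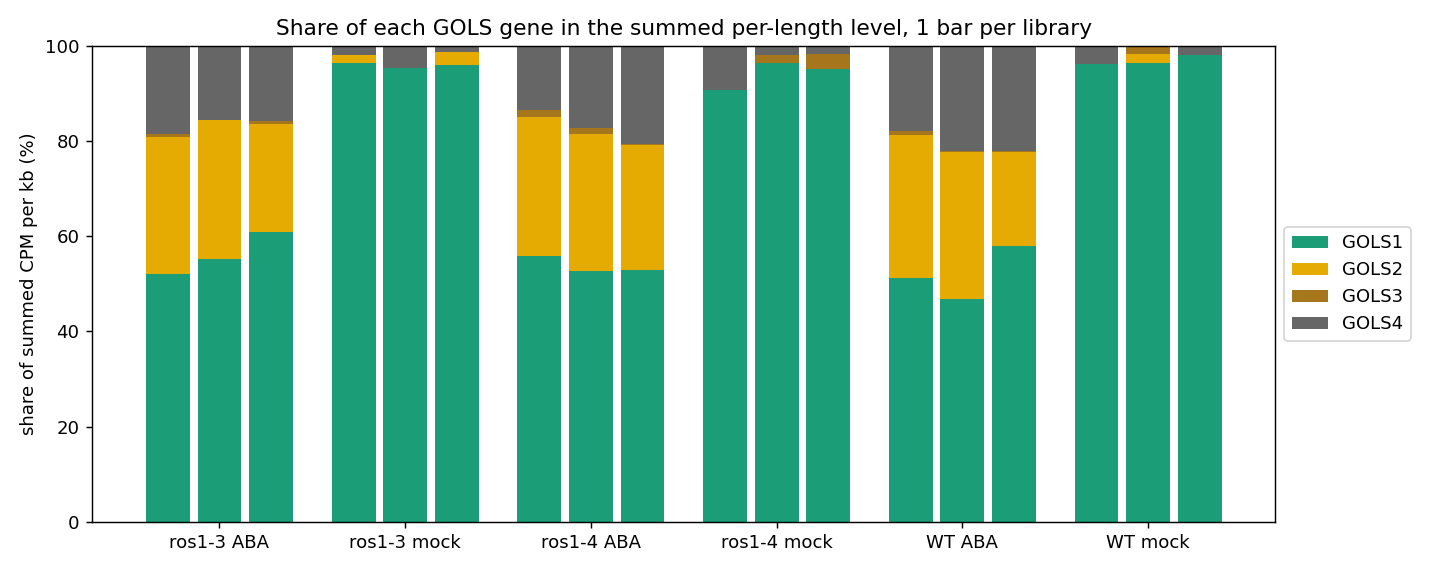
Share of each GOLS gene in the summed CPM per kilobase of the 4 genes (vertical axis, percent), 1 bar per library, in the 6 groups. GOLS1 takes 90.7% or more of each mock bar and 60.9% or less of each ABA bar.

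RS5, the raffinose synthase gene with a clear level in these seedlings, rose less than GOLS2 and GOLS4. It had 20.7, 21.7 and 11.3 CPM in ros1-3 ABA against 7.77, 8.81 and 10.3 in ros1-3 mock, 15.1, 12.2 and 14.4 in ros1-4 ABA against 11.3, 8.97 and 7.29 in ros1-4 mock, and 14.6, 16.9 and 15.6 in WT ABA against 7.51, 9.86 and 6.37 in WT mock. ABA libraries stood above mock libraries in each genotype, by a narrow gap in ros1-4 and, through replicate 3, in ros1-3. The log2 fold change was 1.0 (SE 0.23, edgeR adjusted p = 0.0013) in ros1-3 and 1.02 (SE 0.21, edgeR adjusted p = 0.000509) in WT. In ros1-4 it was 0.61 (SE 0.22, edgeR adjusted p = 0.0305). Leaving out ros1-4 ABA replicate 1 (log2 0.55, adjusted p = 0.088) or 3 (0.58, 0.0714), or ros1-4 mock replicate 2 (0.59, 0.0716) or 3 (0.46, 0.155), ended that call. Over the alternatives run, its edgeR or DESeq2 adjusted p went from 0.011 to 0.155. RS5 lies on chromosome 5, 16161449 to 16165453, on the plus strand.

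RS4, a synthase of raffinose and stachyose known from seeds, gave 29 reads over the 18 libraries, 17 of them in WT mock. It gave 0, 0 and 2 reads in ros1-3 ABA against 2, 1 and 2 in ros1-3 mock, 0 in each ros1-4 ABA library against 0, 0 and 1 in ros1-4 mock, and 2, 1 and 1 in WT ABA against 6, 8 and 3 in WT mock. When loci of low counts were kept in the test, RS4 was lower with ABA in WT (log2 -2.28, edgeR adjusted p = 0.0335), and not past the threshold in ros1-3 (-1.29, adjusted p = 0.54) or ros1-4 (-2.03, adjusted p = 0.477). RS4 gave 1 read in ros1-4 mock against 17 in WT mock, and the ratio of scaled counts, WT mock over ros1-4 mock, was 13 (exact 95% counting interval 2.04 to 545), and its adjusted p in that test was 0.277.

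**Figure D3:**
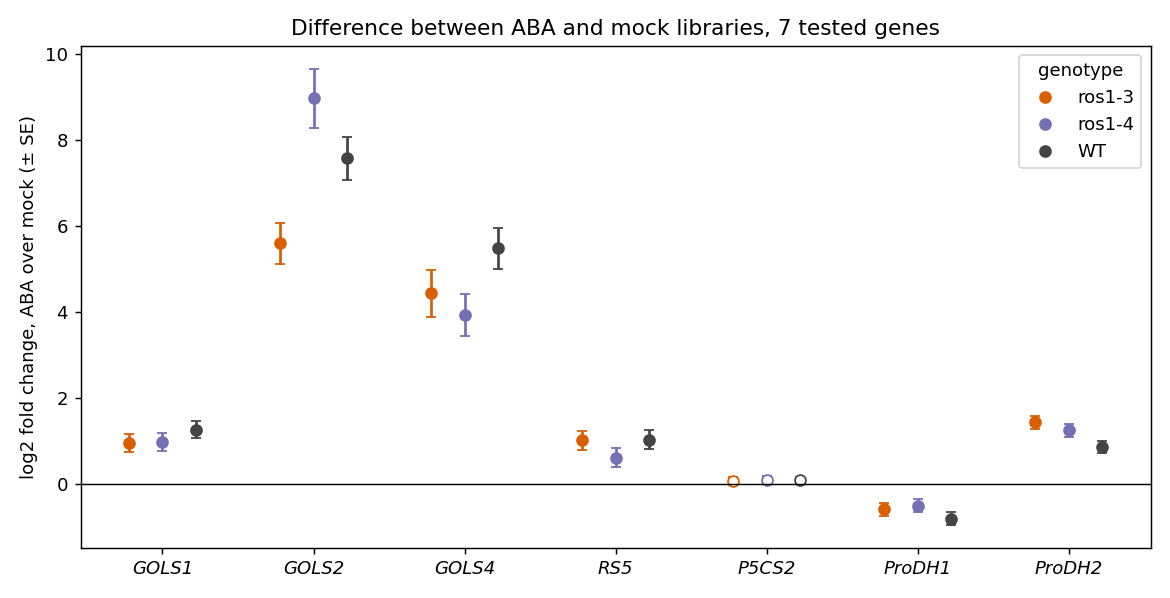
Log2 fold change of ABA over mock (vertical axis, ± SE) for the 7 tested genes in ros1-3, ros1-4 and WT; filled points passed the test, open points did not. GOLS2 and GOLS4 stand highest, ProDH1 is below 0 and P5CS2 lies at 0.06 to 0.09; the GOLS2 points depend on the prior count that edgeR adds, since their mock groups hold 0 to 3 reads.

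Of the proline synthesis genes, P5CS2, the housekeeping copy of the P5CS pair, was level across the 6 groups. It had 83.8, 88.6 and 81.5 CPM in ros1-3 ABA against 82.7, 85.1 and 75.5 in ros1-3 mock, 80.7, 86.2 and 71.9 in ros1-4 ABA against 74.7, 74.6 and 74.4 in ros1-4 mock, and 81.1, 83.6 and 76.3 in WT ABA against 70.8, 79.9 and 76.8 in WT mock. ABA and mock libraries overlapped in each genotype. The log2 fold change was 0.06 in ros1-3 (95% interval -0.11 to 0.23), 0.09 in ros1-4 (-0.08 to 0.26) and 0.08 in WT (-0.09 to 0.25). The edgeR adjusted p was 0.619, 0.41 and 0.466, and no alternative gave a call. P5CS2 lies on chromosome 3, 20624020 to 20629295, on the minus strand, and 32 of its 5276 bases overlap AT3G55605 on the other strand. That neighbour fell with ABA in ros1-4 (log2 -0.76, edgeR adjusted p = 0.0058) and WT (-0.52, adjusted p = 0.0431), and was at -0.55 in ros1-3 (adjusted p = 0.0551).

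P5CS1, the stress-responsive copy and no member of the chosen 10, gave 3 reads over all libraries. It has 4 transcript models in the files, and a read shared by several models of a locus goes to an ambiguous class that is not counted, so its level could not be measured here. The 2 P5CS coding sequences were 85.2% identical, with a longest identical run of 53 bases. P5CR, with 2 models, gave 25 reads in all. They were 0, 1 and 2 in ros1-3 ABA against 3, 2 and 0 in ros1-3 mock, 1, 1 and 4 in ros1-4 ABA against 2, 1 and 2 in ros1-4 mock, and 1, 2 and 0 in WT ABA against 1, 0 and 2 in WT mock. P5CS2 also has 2 models, of which 1 holds 8041 of its reads and the other 1 read, and the other 8 members have 1 model each.

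The 2 proline dehydrogenase genes moved in opposite directions with ABA. ProDH1, the main enzyme of proline breakdown, had 853, 770 and 677 CPM in ros1-3 ABA against 1098, 1388 and 999.6 in ros1-3 mock. It had 1463, 1066 and 900 CPM in ros1-4 ABA against 1654, 1744 and 1485 in ros1-4 mock, and 1207, 1167 and 1162 CPM in WT ABA against 1879, 2243 and 2102 in WT mock. The treatments did not overlap within a genotype, and in ros1-4 ABA replicate 1 lay just under the lowest mock library. ProDH1 fell by 0.60 on the log2 scale in ros1-3 (SE 0.14, edgeR adjusted p = 0.00214), by 0.51 in ros1-4 (SE 0.14, edgeR adjusted p = 0.0072) and by 0.82 in WT (SE 0.14, edgeR adjusted p = 9.67e-05). Without ros1-4 ABA replicate 3 the call in ros1-4 was lost (log2 -0.36, adjusted p = 0.0584, where its alternatives went from 0.000209 to 0.0584). ProDH1 lies on chromosome 3, 12448636 to 12451556, on the minus strand.

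ProDH2, the copy with far fewer transcripts, had 29.5, 37.6 and 32.5 CPM in ros1-3 ABA against 11.6, 11.1 and 14.8 in ros1-3 mock. It had 26.5, 28.6 and 24.2 CPM in ros1-4 ABA against 10.8, 11.9 and 10.8 in ros1-4 mock, and 24.2, 19.8 and 20.8 CPM in WT ABA against 13.8, 13.8 and 9.95 in WT mock. All ABA libraries were above all mock libraries. ProDH2 rose by a log2 fold change of 1.42 in ros1-3 (SE 0.15, edgeR adjusted p = 1.33e-07), 1.24 in ros1-4 (SE 0.15, edgeR adjusted p = 7.25e-07) and 0.84 in WT (SE 0.14, edgeR adjusted p = 6.49e-05). Per length its level was 16.5 ± 2.05 CPM per kb in ros1-3 ABA and 6.20 ± 1.09 in WT mock (SD, n = 3 each), beside 353 ± 40.3 and 954 ± 84.4 for ProDH1 in the same groups. The coding sequences of the pair were 73.1% identical, with a longest identical run of 17 bases. ProDH2 lies on chromosome 5, 15501126 to 15504269, on the plus strand, and the printed windows of the pair share none of the 4 motifs.

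Per length, ProDH1 was the highest of 9 members in each group, at 954 ± 84.4 CPM per kb in WT mock (SD, n = 3). P5CS2 followed, at 29.3 ± 1.36 CPM per kb in WT ABA against 27.6 ± 1.69 in WT mock. In WT ABA the next were GOLS1 at 19.4 ± 2.54, ProDH2 at 10.7 ± 1.15, GOLS2 at 9.95 ± 2.3, GOLS4 at 7.76 ± 1.42 and RS5 at 5.25 ± 0.393 CPM per kb. ProDH2 and GOLS2, and GOLS2 and GOLS4, were each closer than their summed SDs. In WT mock the order after P5CS2 was GOLS1 at 8.24 ± 1.13, ProDH2 at 6.20 ± 1.09 and RS5 at 2.65 ± 0.597 CPM per kb, with GOLS1 and ProDH2 closer than their summed SDs. GOLS2, GOLS3, GOLS4 and RS4 were each under 1 CPM per kb there. P5CR is left out of this order, since reads shared by its 2 models are not counted. Reads shared by the 2 models of P5CS2 are not counted either, so its per-length level can be too low.

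Mutants were compared with WT within each treatment to see whether mutation of ROS1 changes these genes. ProDH1 was lower in ros1-3 than in WT under both treatments, and ProDH2 was higher in ros1-3 under ABA. In ros1-4 no tested member passed. In ros1-3 against WT, edgeR called 2 of the 7 tested members under ABA and 1 under mock, beside 1.72% and 1.32% of all tested loci. In ros1-4 against WT it called 0 of 7 under either treatment, beside 0.681% of all loci under ABA and 0.448% under mock. DESeq2 also called 0 of 7 in ros1-4. Those with an unadjusted p under 0.05 were GOLS1, GOLS4 and ProDH2 under ABA and ProDH1 under mock, 3 and 1 of 7, beside 1294 and 1096 of the 15853 tested loci.

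ProDH1 averaged 767 ± 87.7 CPM in ros1-3 ABA against 1179 ± 24.7 in WT ABA, and 1162 ± 202 in ros1-3 mock against 2075 ± 184 in WT mock (SD, n = 3 each). The libraries of ros1-3 and WT given above did not overlap under either treatment, beside 19.3% of all tested loci under ABA and 16.6% under mock. The log2 fold change was -0.62 under ABA (SE 0.14, edgeR adjusted p = 0.0253) and -0.84 under mock (SE 0.14, edgeR adjusted p = 0.00204). The share of multiply aligned reads was lower in ros1-3 mock, at 6.53% to 9.45%, against 9.80% to 13.0% in WT mock. It overlapped under ABA, at 5.60% to 7.48% in ros1-3 ABA against 6.32% to 11.4% in WT ABA. With that share as a covariate the value was -0.59 under ABA (adjusted p = 0.0542) and -0.74 under mock (adjusted p = 0.0871), and neither was called. Under ABA the call was also lost without WT ABA replicate 1, 2 or 3 (log2 -0.60, -0.63 and -0.63) and without ros1-3 ABA replicate 2 or 3 (-0.62 and -0.54), with adjusted p of 0.0614 to 0.175. Over all alternatives run, the adjusted p went from 0.00102 to 0.175 under ABA and from 4.26e-06 to 0.0871 under mock.

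The ros1-4 libraries held 1143 ± 289 CPM of ProDH1 after ABA and 1628 ± 132 after mock (SD, n = 3 each). Against WT the log2 fold change was -0.04 under ABA (95% interval -0.34 to 0.25, edgeR adjusted p = 0.985) and -0.35 under mock (-0.65 to -0.05, edgeR adjusted p = 0.595). Under mock the 3 ros1-4 libraries nonetheless lay below the 3 WT libraries; 11.6% of all tested loci showed no overlap in this comparison, in either direction. The alleles were also compared with each other, a comparison added after these values were seen. ProDH1 was lower in ros1-3 than in ros1-4 under ABA (log2 -0.58, SE 0.14, edgeR adjusted p = 0.0308), the 1 call of 7, beside 2.79% of all tested loci. Under mock its log2 fold change was -0.49 (SE 0.14, edgeR adjusted p = 0.111), with 0 of 7 members called by edgeR or DESeq2 beside 1.27% of all loci. ProDH1 was the 1 member of 7 with an unadjusted p under 0.05 there, beside 1995 of the 15853 loci. The ABA call was lost without ros1-3 ABA replicate 2 (log2 -0.58) or 3 (-0.49) or ros1-4 ABA replicate 1 (-0.36), and with the covariate (-0.64, adjusted p = 0.0556), where its alternatives went from 0.00185 to 0.211. Under mock, ProDH1 was called without the count filter (adjusted p = 0.0257) and without ros1-3 mock replicate 2 (log2 -0.63, adjusted p = 0.0397). ProDH1 libraries of the alleles did not overlap under either treatment, beside 21.6% of all tested loci under ABA and 16.4% under mock. The multiply aligned share was 5.60% to 7.48% in ros1-3 ABA against 3.86% to 4.46% in ros1-4 ABA.

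ProDH2 averaged 33.2 ± 4.13 CPM in ros1-3 ABA, 26.4 ± 2.18 in ros1-4 ABA and 21.6 ± 2.31 in WT ABA (SD, n = 3 each). In ros1-3 it was higher than in WT (log2 0.61, SE 0.13, edgeR adjusted p = 0.0127), without overlap of libraries. That call was lost without WT ABA replicate 2 (0.56) or 3 (0.59) or ros1-3 ABA replicate 2 (0.51), and its alternatives gave adjusted p from 0.00397 to 0.117. With the multiply aligned share as covariate it held. In ros1-4 the libraries also lay above WT, although the lowest of ros1-4 and the highest of WT all but touched, beside 13.1% of all tested loci without overlap, and the difference of 0.28 did not pass (95% interval 0.01 to 0.54, edgeR adjusted p = 0.593). After mock ProDH2 averaged 12.5 ± 2.01 CPM in ros1-3, 11.2 ± 0.622 in ros1-4 and 12.5 ± 2.21 in WT, and neither mutant passed against WT (log2 0.04 and -0.12, edgeR adjusted p = 0.966 and 0.962).

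The other 5 tested members did not pass in any comparison of a mutant with WT. P5CS2 had the narrowest intervals, -0.09 to 0.24 under ABA and -0.08 to 0.27 under mock for ros1-3, and -0.18 to 0.15 and -0.20 to 0.14 for ros1-4, on the log2 scale. GOLS1 was at -0.40 in ros1-4 under ABA (-0.77 to -0.02, edgeR adjusted p = 0.593) and GOLS4 at -0.66 (-1.17 to -0.14, edgeR adjusted p = 0.409). RS5 was at 0.19 in ros1-3 under ABA (-0.22 to 0.59) and -0.16 in ros1-4 (-0.55 to 0.23), and GOLS2 at -0.16 (-0.60 to 0.27) and -0.38 (-0.80 to 0.04). GOLS4 in ros1-4 was the lowest of these values and had the smallest adjusted p among them. In ros1-3 under ABA the GOLS4 libraries also lay below all WT libraries, beside 19.3% of all tested loci without overlap. The alternatives gave log2 -0.63 to -0.40 there, and none gave a call. For GOLS1 in ros1-3 under ABA they gave -0.19 to 0.08. GOLS1 libraries of ros1-4 under ABA lay below all WT libraries, beside 13.1% of all tested loci without overlap. Under mock GOLS2 and GOLS4 rest on 0 to 6 reads per group.

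**Figure D4:**
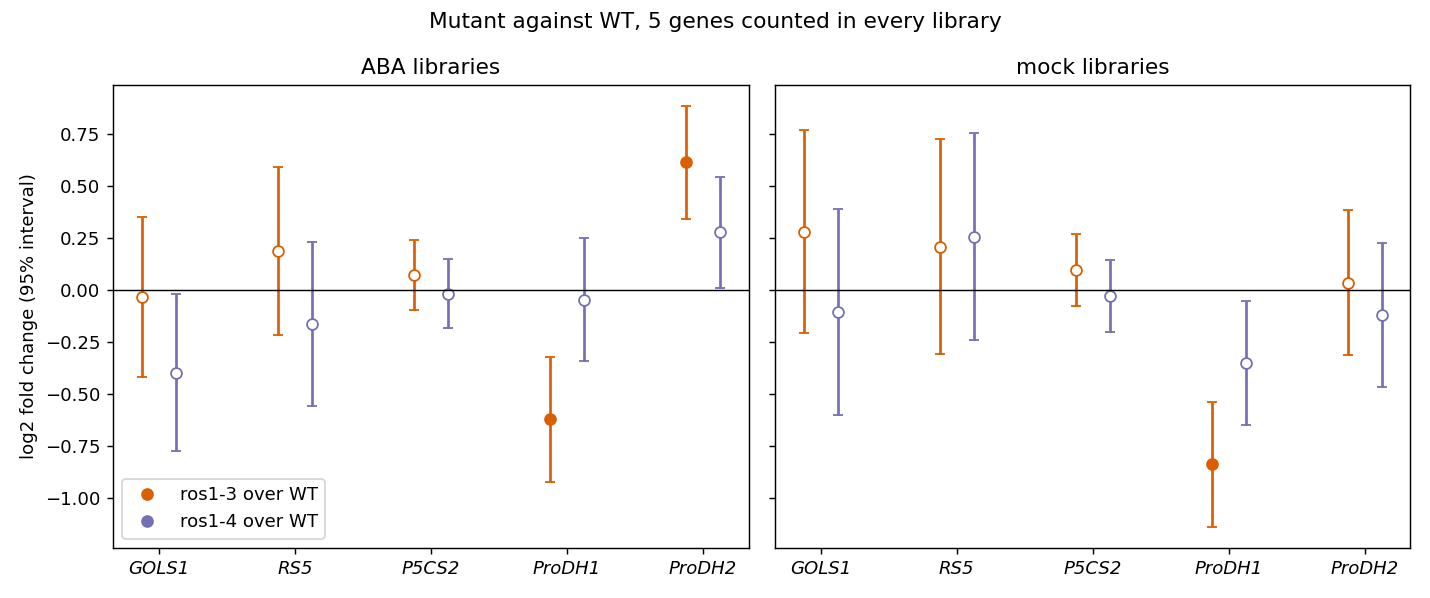
Log2 fold change of ros1-3 and ros1-4 over WT (vertical axis, 95% interval) in ABA libraries (left panel) and mock libraries (right panel) for the 5 members counted in each library; filled points passed the test, open points did not. ProDH1 in ros1-3 stands lowest in both panels, at -0.62 and -0.84, and ProDH2 in ros1-3 is highest under ABA, at 0.61.

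The ABA response of each mutant was also tested against that of WT. None of the 7 members passed for either allele, and no locus of the 15853 was called by edgeR (0%), with 743 at an unadjusted p under 0.05 for ros1-3 and 521 for ros1-4. DESeq2 called 11 loci for ros1-3 and 1 for ros1-4, none of them a member. ProDH2 had the lowest unadjusted p among the members, with a response larger by log2 0.58 in ros1-3 (SE 0.21, 95% interval 0.14 to 1.02, edgeR adjusted p = 0.994) and 0.40 in ros1-4 (SE 0.21, -0.04 to 0.83, edgeR adjusted p = 1). The fall of ProDH1 was smaller by 0.22 in ros1-3 (-0.21 to 0.64) and 0.31 in ros1-4 (-0.12 to 0.73), within the error. For RS5 the difference was -0.02 in ros1-3 (-0.67 to 0.62) and -0.42 in ros1-4 (-1.05 to 0.22), so the smaller value in ros1-4 given above was not shown to differ from WT.

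The neighbouring genes of the raffinose pathway were mixed. Of 21 listed, 13 could be tested. With ABA 5 rose and 3 fell in ros1-3, 6 rose and 2 fell in ros1-4, and 6 rose and 4 fell in WT. Over all tested loci 19.7% rose and 18.5% fell in ros1-3, 19.8% and 18.4% in ros1-4, and 20% and 18.5% in WT. UGE5, a UDP-galactose epimerase that supplies the galactose donor, rose to 11.1 ± 3.05 CPM in ros1-3 ABA against 1.42 ± 0.472 in ros1-3 mock, to 13.2 ± 2.89 in ros1-4 ABA against 1.38 ± 0.163 in ros1-4 mock, and to 10.9 ± 0.408 in WT ABA against 1.65 ± 0.996 in WT mock (SD, n = 3 each). Its log2 fold change was 2.99 in ros1-3, 3.24 in ros1-4 and 2.57 in WT. UGE2, another epimerase, rose by 0.79 in ros1-3, 0.64 in ros1-4 and 0.96 in WT, and SIP1, of the raffinose synthase and seed imbibition protein family, by 1.16 in ros1-3, 1.07 in ros1-4 and 1.47 in WT. MIPS3, a myo-inositol phosphate synthase that starts inositol synthesis, fell, with 19.8 ± 3.91 CPM in ros1-3 ABA against 69.2 ± 1.18 in ros1-3 mock, 14.8 ± 4.58 in ros1-4 ABA against 65.6 ± 4.32 in ros1-4 mock, and 20.1 ± 5.57 in WT ABA against 71.6 ± 11.7 in WT mock. The median log2 fold change of the 13 was 0.10 in ros1-3, 0.19 in ros1-4 and 0.32 in WT, beside the medians of all tested loci given above.

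In the proline pathway 6 of 10 listed genes could be tested, and 4 rose and 1 fell with ABA in each genotype. Of all tested loci, 19.7% to 20% rose and 18.4% to 18.5% fell, depending on the genotype. ARGAH2, an arginase that feeds ornithine into the pathway, had the largest rise, to 46.4 ± 5.30 CPM in ros1-3 ABA against 4.29 ± 0.114 in ros1-3 mock, to 35.2 ± 11.1 in ros1-4 ABA against 3.74 ± 1.83 in ros1-4 mock, and to 38.4 ± 6.83 in WT ABA against 5.18 ± 0.763 in WT mock. Its log2 fold change was 3.43 in ros1-3, 3.24 in ros1-4 and 2.88 in WT. Ornithine aminotransferase, OAT, rose by log2 1.14 in ros1-3, 1.0 in ros1-4 and 1.25 in WT. P5CDH, the enzyme after ProDH in proline breakdown, rose by 0.52 in ros1-3, 0.48 in ros1-4 and 0.55 in WT, while ProDH1 fell in the same libraries. AAP6, an amino acid permease, fell in each genotype, with log2 fold changes of -1.60 in ros1-3, -1.58 in ros1-4 and -1.83 in WT. The median of the 6 was 0.79 in ros1-3, 0.74 in ros1-4 and 0.75 in WT.

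**Figure D5:**
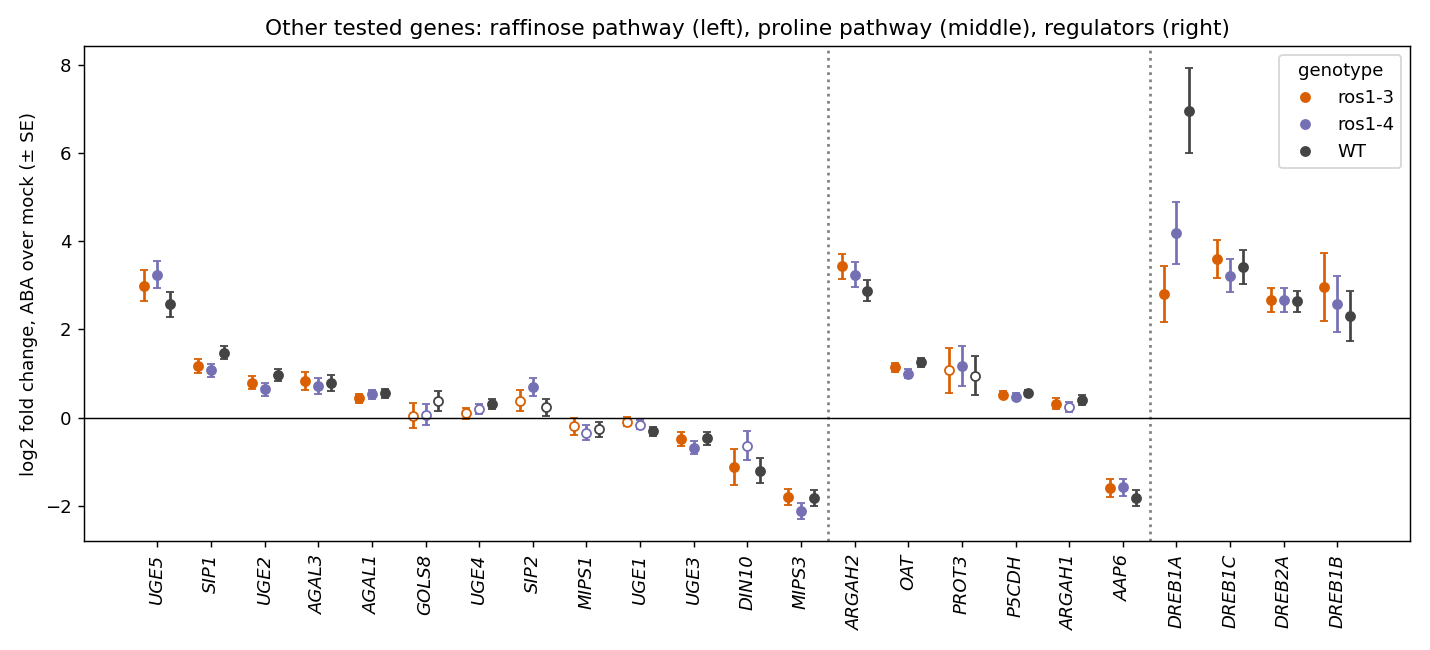
Log2 fold change of ABA over mock (vertical axis, ± SE) for the tested genes of the raffinose pathway, the proline pathway and a list of regulators, in ros1-3, ros1-4 and WT; filled points passed the test, open points did not. UGE5, ARGAH2 and the DREB genes lie highest and MIPS3 and AAP6 lowest; the DREB1A point of WT rests on 0 reads in mock and depends on the prior count that edgeR adds.

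Of 10 listed regulators, 4 passed the count filter, and these 4 rose with ABA in each genotype, beside 19.7%, 19.8% and 20% of all tested loci in ros1-3, ros1-4 and WT. DREB1A, DREB1B and DREB1C had at most 6 reads in any mock library and passed only through the ABA libraries, so they had to differ, and the count is a description. All 4 are DREB genes, whose proteins bind the dehydration-responsive element. DREB2A had 17.1 ± 3.65 CPM in ros1-3 ABA against 2.75 ± 0.787 in ros1-3 mock, 14.7 ± 2.24 in ros1-4 ABA against 2.33 ± 1.22 in ros1-4 mock, and 17.1 ± 1.79 in WT ABA against 2.72 ± 0.195 in WT mock. Its log2 fold change was 2.67 in ros1-3, 2.67 in ros1-4 and 2.63 in WT. DREB1C rose by 3.60 in ros1-3, 3.22 in ros1-4 and 3.42 in WT. DREB1B, with at most 8 mock reads per group, rose by 2.58 in ros1-4 and 2.31 in WT, the WT call being lost with the covariate (1.61, edgeR adjusted p = 0.0969), and its ratio of scaled counts in ros1-3 was 8.43 (exact 95% counting interval 2.59 to 43.4). DREB1A gave 61 reads in WT ABA against 0 in WT mock, at least 17.5-fold higher against a floor of 3 counts over the group. Its ratio of scaled counts was 20.6 in ros1-4 (exact 95% counting interval 5.46 to 174), and its log2 fold change was 2.80 in ros1-3. HSFA2, a heat stress factor known to act on galactinol synthase genes, did not pass the count filter, with 66 reads over all libraries. It has 2 models, and reads shared by them are not counted. Its ratio of scaled counts, ABA over mock, was 6.87 in ros1-3 (22 against 3 reads, exact 95% counting interval 2.06 to 35.9). In ros1-4 it gave 16 reads against 0, at least 3.73-fold against the same floor. For WT, with 9 reads in mock, no such ratio was computed, so no rise of HSFA2 with ABA is claimed for WT. BZIP1, BZIP2, BZIP11, BZIP44 and BZIP53, of which some bind the proline-responsive element, are listed at 0 in every library, and no level is given for them.

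Likeness of pattern was described by Pearson's r of log2 CPM (with 0.5 added) over the 18 libraries, among 15284 loci. The points share treatment, library and depth. GOLS2 was most like HAI3 (r = 0.993), HAI2 (0.992) and HB-12 (0.992), and 1159 loci had an r over 0.9. For GOLS4 they were BETA-VPE (0.981), WRKY24 and BTI1 (0.978 each), with 974 loci over 0.9, and for ProDH2 CYP81H1 (0.97), RPT1A (0.968) and PES1 (0.967), with 630. ProDH1, with 18 loci over 0.9, was most like MIOX2 (0.94), TMT1 (0.934) and GLDP2 (0.933). GOLS1 was most like CYP81F4 and MYB34 (0.939 each) and RS5 like AMSH3 (0.911). P5CS2 had no locus over 0.9, and its highest r was 0.839, with AT3G57790.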

How the data were processed

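The authors deposited raw read counts per transcript model for 18 libraries. The submitters' processing notes name HTSeq 0.6.1, SAMtools, TopHat2 2.0.8, Trim Galore 0.2.8 and the build TAIR10, with a strand setting not given in the sources used here. Models were summed per locus. The 5 rows without a gene took 36.7% to 44.5% of reads and were left out. Reads shared by several models of a locus fall in such a row, which lowers loci with several models.

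Tests were made in R 4.3.3 with edgeR 4.0.16: TMM scaling, filterByExpr with a minimum count of 10, the quasi-likelihood F test on a single model with the 6 group means, and Benjamini-Hochberg adjustment over 15853 loci, with calls at 0.05. SE was taken as the size of the log2 fold change over the root of F. Alternatives were DESeq2 1.42.0, its size factors in edgeR, no filter, the compared groups alone, the share of multiply aligned reads as covariate, a replicate block, the most counted model and leaving out each library. The scripts were tested on simulated data.

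Positions, lengths and promoters came from TAIR10.1 by locus identifier, and coding identity from Biopython 1.88. Members, lists and motifs were chosen with earlier results of these data known, and the comparison of the alleles was added after seeing the data. Named pathway genes are up to 4 per list called in WT with ABA, smallest p first, with P5CS1 always named, and for likeness up to 3 loci per member.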

Additional observations from a re-analysis of the deposited data

How the results depend on the processing

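With ABA against mock, the direction of the 7 tested members held in every alternative run, and 6 were called in each genotype; without the count filter RS4 made it 7 in WT, and without 1 library at a time it was 6 in ros1-3, 4 to 6 in ros1-4 and 6 in WT. Counts over all loci without 1 library were 5139 to 5718 in ros1-3, 5094 to 5578 in ros1-4 and 5233 to 5605 in WT. The genotype comparisons moved more, and the cause was not tested. With the share of multiply aligned reads as covariate the loci called were 211 for ros1-3 against WT under ABA and 96 under mock, 44 and 11 for ros1-4 against WT, and 267 and 80 for ros1-3 against ros1-4, where the main counts were 273, 210, 108, 71, 442 and 201. The members called were then 1, 0, 0, 0, 0 and 0, against 2, 1, 0, 0, 1 and 0. Under mock that share was 3.47% to 4.62% in ros1-4, 6.53% to 9.45% in ros1-3 and 9.80% to 13.0% in WT. Under ABA it was 3.86% to 4.46% in ros1-4 against 6.32% to 11.4% in WT. Where the shares do not overlap, the covariate fit cannot fully separate share from genotype. Without the filter the loci were 333 for ros1-3 against WT under mock, 202 and 108 for ros1-4 against WT under ABA and mock, and 320 for ros1-3 against ros1-4 under mock, with 1 member called in the last. Without 1 library at a time ros1-3 against WT gave 138 to 302 loci and 0 to 2 members under ABA, and 105 to 285 loci and 1 member under mock. The low counts came without WT ABA replicate 2 or 3, any ros1-3 ABA replicate, or ros1-3 mock replicate 1 or 3. For ros1-4 against WT it gave 65 to 104 loci under ABA and 47 to 68 under mock, lowest without WT ABA replicate 3 and ros1-4 mock replicate 2. For ros1-3 against ros1-4 it gave 199 to 351 loci and 0 to 1 member under ABA, and 116 to 224 loci and 0 to 1 member under mock. The tests of ABA responses called 11 loci with DESeq2, 4 with the covariate and 16 without the filter for ros1-3, and 1 with DESeq2 and 3 without the filter for ros1-4, with 0 to 6 and 0 to 2 without 1 library, and no member in any. ProDH1 of ros1-4 against WT under ABA, at -0.04, was 0.053 with the covariate and -0.26 to 0.10 without 1 library; ProDH2 of ros1-3 against WT under mock, at 0.04, was -0.15 to 0.13 without 1 library.

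Replicate numbers gave no clear pairing of the libraries: of 45 same-numbered pairs 1 had a correlation of deviations over 0.1 (range -0.18 to 0.245), and 4 of 18 libraries correlated best with their own number. The highest value was that of ros1-4 mock and ros1-4 ABA replicate 1. Deviations from means of 3 libraries cannot exclude shared growth or handling of same-numbered pools. With the number as a replicate block, 5904, 5878 and 5864 loci were called with ABA in ros1-3, ros1-4 and WT, 232 and 178 for ros1-3 against WT under ABA and mock, 96 and 64 for ros1-4, and 362 and 173 between the alleles, with 0 for the ABA responses, and the counts of members called were as without it. Low counts limit GOLS3, RS4 and P5CR throughout and GOLS2 and GOLS4 under mock.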
